A study of Homo sapiens with 4 samples.

Results

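The genes described here are NFE2L2, which encodes the transcription factor NRF2, and 8 genes known as its targets: NQO1, HMOX1, GCLC, GCLM, TXNRD1, SRXN1, AKR1B10 and AKR1C1. They were chosen by gene name, as all probes carrying one of these 9 names on the arrays, which gave 9 of 25992 gene names, 12 of 34127 probes and 21 of 43118 spots. The cells were human proximal tubular cells (HPTCs) of 2 immortalised lines, HK-2 and RPTEC/TERT1. HK-2 carries papillomavirus E6 and E7 genes, and RPTEC/TERT1 was made with the catalytic subunit of telomerase, so each line stands for a single source of cells. After 24 h without serum or supplements, every culture received interleukin-1β (IL-1β, 10 ng/mL), a pro-inflammatory cytokine, together with empagliflozin (Empa, 500 nM), an inhibitor of the sodium-glucose cotransporter SGLT2, for 24 h. Each line had 2 arrays, its replicates 1 and 2, written here as rep 1 and rep 2. Cultures without IL-1β, or without Empa, were not analysed here. The values show levels under both agents and no effect of either.

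NRF2 is held in the cytoplasm by KEAP1, which brings it to a ubiquitin ligase for degradation. Oxidants and electrophiles modify KEAP1, NRF2 then enters the nucleus, pairs with a small MAF protein and binds antioxidant response elements near genes for quinone reduction, glutathione synthesis, thioredoxin recycling, heme breakdown and NADPH supply. In the proximal tubule, a segment with a high rate of mitochondrial respiration and of solute uptake, this system is known for its part in the defence against oxidative and toxic injury.

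A level is given as log2 of the processed signal over the 75th percentile of its array, so a level of 0 lies at that percentile and a difference of 1 is 2-fold. These percentiles were signals of 393 on HK-2 rep 1, 748 on HK-2 rep 2, 488 on RPTEC/TERT1 rep 1 and 429 on RPTEC/TERT1 rep 2, and levels were floored at -5.37. Between 59.2% and 64.9% of the spots of an array were well above background, and no spot of the 9 genes was saturated or marked as an outlier. The arrays did not group by their labels. Across 17928 genes HK-2 rep 1 correlated with RPTEC/TERT1 rep 2 at 0.980 and HK-2 rep 2 with RPTEC/TERT1 rep 1 at 0.976, against 0.865 for the arrays labelled HK-2 and 0.855 for those labelled RPTEC/TERT1. The labels were kept as given, every value below is named by its label, and which arrays, if any, carry a wrong label cannot be told apart here. The replicate number was also the scan date, and arrays of the same date correlated at 0.861 and 0.875, below the arrays that pair across dates. Of 14 proximal tubule markers 7 were well above background on all arrays, among them PAX8, DPP4 and CDH16, which were highest on HK-2 rep 1 and RPTEC/TERT1 rep 2, and LRP2 and GGT1, which were not, and 3 on none, which were CUBN, SLC22A6 and HNF4A. Their summed level on the linear scale was 55.9 and 7.39 times the array percentile on HK-2 reps 1 and 2, and 11.3 and 53.4 times on RPTEC/TERT1 reps 1 and 2. None of 5 fibroblast markers was well above background on all arrays, and their summed level lay between 0.128 and 0.148. Of these markers 4 were well above background on no array, so this sum lies near the floor. The sums of other lists moved with the arrays, and single genes set much of them. Of the distal nephron markers, SLC12A1 was at -0.51 and -0.10 on HK-2 rep 1 and RPTEC/TERT1 rep 2 and at the floor elsewhere. UMOD lay between -3.04 and -2.70. CD68 made most of the leukocyte sum, and PAX8, DPP4 and CDH16 made most of the proximal tubule sum. Summed levels on HK-2 reps 1 and 2 and RPTEC/TERT1 reps 1 and 2 were 25.1, 16.6, 12.1 and 28.0 for 4 epithelium markers (3 well above background on all arrays), 0.936, 1.42, 1.87 and 0.876 for 4 leukocyte markers (3 on all arrays, CD3E on 1), 0.876, 0.219, 0.219 and 1.15 for 4 distal nephron markers (1 on all arrays, SLC12A3 and AQP2 on none), and 0.395, 0.267, 0.196 and 0.254 for 4 endothelium markers (1 on all arrays, VWF and KDR on none). The part of such markers in the results below was not tested, and in cultures read as bulk RNA fewer cells of a kind and less RNA per cell cannot be told apart.

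Whether NRF2 target genes differed between HK-2 and RPTEC/TERT1 cells under IL-1β and Empa was tested with limma over 16468 genes well above background on at least 2 arrays. All 9 genes were among them, AKR1C1 through HK-2 rep 1 and RPTEC/TERT1 rep 2 and AKR1B10 through 3 arrays. None of the 9 passed an adjusted p of 0.05, beside 0 of all genes (0%), and every adjusted p of the 9 was 1. Arrays of a line were less alike than arrays that pair across the labels, so the spread within a line was wide. The fit therefore had little power for a difference between the lines. The absence of calls does not show that the lines were alike. At an unadjusted p under 0.05 limma gave 23 of all genes (0.14%) and none of the 9. The median difference of HK-2 minus RPTEC/TERT1 was -0.11 over the 9 genes and 0.02 over all genes tested. The differences between arrays ran across the labels, and 6 of the 9 genes (NQO1, HMOX1, GCLC, TXNRD1, AKR1B10 and AKR1C1) had their highest levels on HK-2 rep 1 and RPTEC/TERT1 rep 2, an order held by 38.9% of all genes (6400 genes). SRXN1 had the opposite order, held by 33.2% of all genes, NFE2L2 was highest on the arrays labelled HK-2, and GCLM on the replicates 2. The arrays of no gene of the 9 lay apart with RPTEC/TERT1 higher, beside 2.81% of all genes. Over the 4 arrays the levels of 6 genes spanned more than 1, beside 52.9% of all genes. Such counts describe these arrays only, and no test was made on them.

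**Figure D1:**
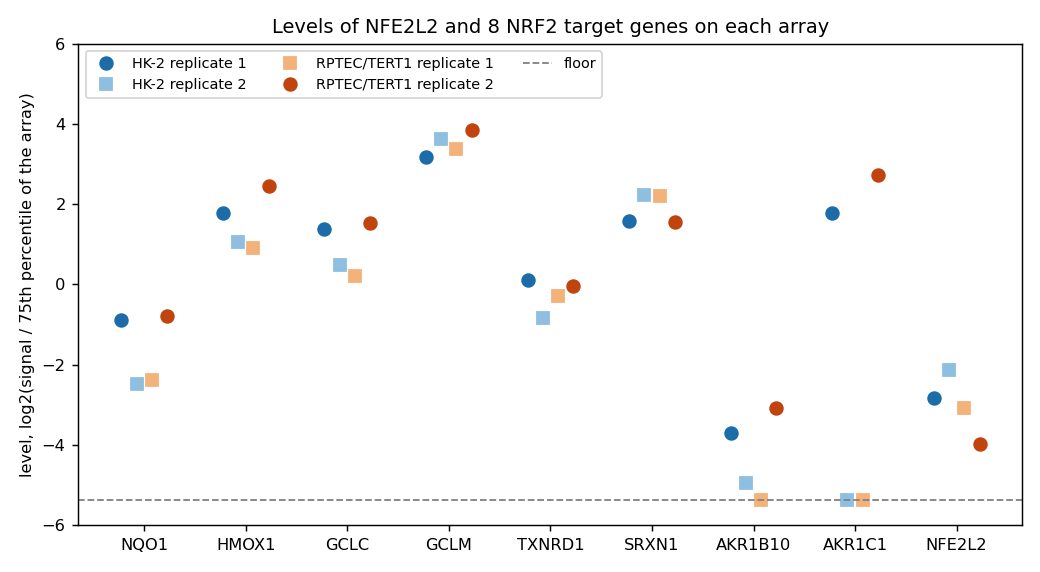
Level of each of the 9 genes on the 4 arrays, as log2 of the processed signal over the 75th percentile of the array, with 1 point per array, blue for HK-2 and orange for RPTEC/TERT1, circles for HK-2 rep 1 and RPTEC/TERT1 rep 2 and squares for the other arrays, and the floor of -5.37 as a dashed line. For 6 genes both circles lie above both squares, SRXN1 shows the opposite order and NFE2L2 lies higher on the arrays labelled HK-2.

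NFE2L2 was read by a single 60-base probe on the minus strand, at chr2:178095693-178095752 of GRCh37, the build named in the file headers, and the file lists 3 RefSeq transcripts of NFE2L2 for it. It is printed because the reading of the regulator itself rests on this probe.
NFE2L2 A_33_P3225600: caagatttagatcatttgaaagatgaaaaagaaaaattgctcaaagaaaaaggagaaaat
The level of NFE2L2 was -2.82 on HK-2 rep 1, -2.13 on HK-2 rep 2, -3.09 on RPTEC/TERT1 rep 1 and -3.97 on RPTEC/TERT1 rep 2. The arrays of the labelled lines did not overlap, with HK-2 higher, as for 4.46% of all genes tested. The difference was 1.05 on the log2 scale (SE 0.57, n = 2 arrays per line, 95% interval -0.48 to 2.59), with an adjusted p of 1 in limma. In the deposited log2 values it was 1.48 (SE 0.62), with an unadjusted p of 0.040 and an adjusted p of 0.63 in limma. Those values have array medians of 8.33, 7.14, 6.75 and 6.72 in the same order of arrays. The medians are higher on both arrays labelled HK-2, and the 1.48 includes that offset. On the processed signal the difference was 0.27 between the replicates 1 and 1.84 between the replicates 2. The probe was dim, with processed signals of 55.6, 170, 57.3 and 27.3 in the same order of arrays. Within HK-2, replicate 1 lay 0.69 below replicate 2 on the processed signal, and 1.41 above it after normexp background correction. After that correction the median of all genes tested lay 0.99 higher on replicate 1. Relative to such a median NFE2L2 lay 0.42 higher there, and 0.04 higher in the deposited log2 values. The order of these arrays was therefore not settled. Nearest to NFE2L2 in centred levels over the 4 arrays were ADCYAP1R1, SNORA33 and STX17-AS1, with root mean square distances of 0.10, 0.15 and 0.19 on the log2 scale. Levels of the mRNA do not show how much NRF2 protein the cells held, since its control by KEAP1 acts on the protein.

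The quinone reductase NQO1, which reduces quinones in a single 2-electron step and is a standard readout of NRF2 activity, followed the crossed order of the arrays. Its level was -0.90 on HK-2 rep 1, -2.49 on HK-2 rep 2, -2.38 on RPTEC/TERT1 rep 1 and -0.79 on RPTEC/TERT1 rep 2. It was thus 3.01-fold higher on replicate 1 than on replicate 2 of HK-2, and 3.01-fold higher on replicate 2 than on replicate 1 of RPTEC/TERT1. The labelled lines overlapped, with a difference of -0.11 (SE 0.88, n = 2 arrays per line, 95% interval -2.48 to 2.26, adjusted p of 1 in limma). HK-2 lay 1.48 above RPTEC/TERT1 between the replicates 1 and 1.70 below it between the replicates 2. NQO1 kept its order within each line under each processing tried. Differences were 1.36 to 1.92 in HK-2 and 1.17 to 1.64 in RPTEC/TERT1. Relative to the median of all genes tested, those in HK-2 were 0.85 to 1.57. The probe lies on the minus strand at chr16:69744274-69744333 (GRCh37), and the file lists 4 NQO1 transcripts for it.

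HMOX1, the inducible heme oxygenase, which opens the heme ring to biliverdin, iron and carbon monoxide, had the best technical replication of the 9 genes, since its probe (chr22:35790122-35790181, plus strand, GRCh37) was spotted 10 times per array. Median processed signals were 1380 on HK-2 rep 1, 1554 on HK-2 rep 2, 917 on RPTEC/TERT1 rep 1 and 2378 on RPTEC/TERT1 rep 2. The levels were 1.79, 1.07, 0.90 and 2.46 in that order, with an SD among the 10 spots of 0.083, 0.078, 0.11 and 0.064. The levels of the 4 arrays were at least 0.17 apart, and the widest gap, between the arrays labelled RPTEC/TERT1, was 1.55 or 2.94-fold. The spots share 1 hybridisation, and their SD leaves out the spread between cultures. The difference of HK-2 minus RPTEC/TERT1 was -0.25 (SE 0.72, n = 2 arrays per line, 95% interval -2.20 to 1.70, adjusted p of 1 in limma), and it was 0.89 between the replicates 1 and -1.39 between the replicates 2.

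For HMOX1 the order within HK-2 rested on the scaling. The unscaled signal was higher on replicate 2, and the level, which is divided by the higher percentile of that array, was higher on replicate 1 by 0.72. After normexp correction replicate 1 lay 0.25 below replicate 2, and in the deposited log2 values 0.05 above it. Under those settings the median of all genes tested lay 0.99 and 0.51 higher on HK-2 rep 1 than on replicate 2, and relative to this median HMOX1 lay 1.24 and 0.46 lower on replicate 1. The order within RPTEC/TERT1 was kept, with differences of 1.38 to 1.55. Genes whose centred levels lay nearest to those of HMOX1 over the 4 arrays were ODF3L2, CFAP36 and PLEKHG5, with root mean square distances of 0.032, 0.046 and 0.066 on the log2 scale. For NQO1 they were WTAP, HIVEP3 and LINC01137, with distances of 0.030 to 0.033. With 4 arrays and 12100 genes compared, such near matches describe these arrays alone.

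**Figure D2:**
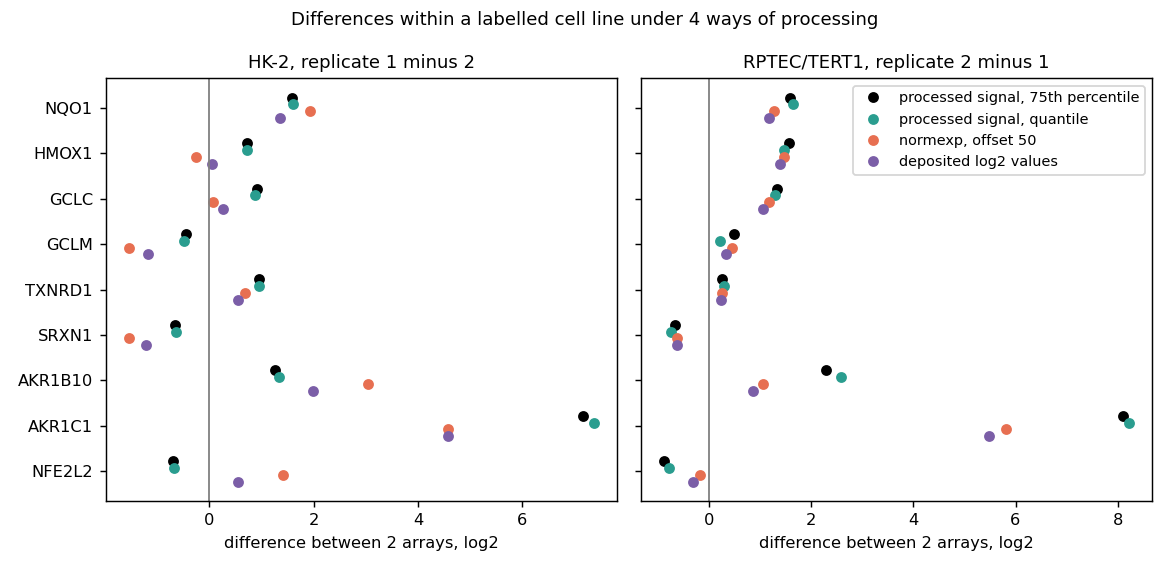
Difference between the arrays of a labelled line for each of the 9 genes, on the log2 scale, as replicate 1 minus replicate 2 in HK-2 (left) and replicate 2 minus replicate 1 in RPTEC/TERT1 (right), with 1 point per way of processing. NQO1 and AKR1C1 lie right of 0 in both panels under all 4 ways, SRXN1 lies left of 0 in both, and HMOX1 and NFE2L2 in HK-2 have points on both sides.

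Glutathione synthesis starts with glutamate-cysteine ligase, whose catalytic subunit is GCLC and whose modifier subunit is GCLM. GCLC had levels of 1.38 on HK-2 rep 1, 0.47 on HK-2 rep 2, 0.20 on RPTEC/TERT1 rep 1 and 1.53 on RPTEC/TERT1 rep 2. It was 1.88-fold higher on replicate 1 of HK-2 and 2.52-fold higher on replicate 2 of RPTEC/TERT1 than on the other array of the line. Its unscaled signals within HK-2 were 1027 and 1038, so the difference there came with the array percentile. It was 0.07 after normexp correction, where the median of all genes tested lay 0.99 higher on replicate 1. Relative to this median GCLC lay 0.92 lower on replicate 1. The difference between the lines was 0.06 (SE 0.69, n = 2 arrays per line, 95% interval -1.81 to 1.94, adjusted p of 1 in limma), with 1.18 between the replicates 1 and -1.06 between the replicates 2.

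GCLM did not share the order of its partner subunit. Its level was 3.19 on HK-2 rep 1, 3.62 on HK-2 rep 2, 3.38 on RPTEC/TERT1 rep 1 and 3.86 on RPTEC/TERT1 rep 2, a range of 0.68 over the 4 arrays. Replicate 2 was the higher array in both lines, by 0.44 and 0.49. The gap in HK-2 was 1.54 after normexp correction and 1.18 in the deposited log2 values, and that in RPTEC/TERT1 was 0.20 with quantile normalization. The difference between the lines was -0.22 (SE 0.47, n = 2 arrays per line, 95% interval -1.50 to 1.07, adjusted p of 1 in limma). The GCLM probe (chr1:94352810-94352869, minus strand, GRCh37) is listed for 1 GCLM transcript.

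In the thioredoxin branch, TXNRD1, the cytosolic thioredoxin reductase, had nearly the same unscaled signal on every array. It was 423 on HK-2 rep 1, 417 on HK-2 rep 2, 401 on RPTEC/TERT1 rep 1 and 420 on RPTEC/TERT1 rep 2. The levels were 0.11, -0.84, -0.29 and -0.03 in that order, so the spread of the levels came with the array percentiles. The difference between the lines was -0.21 (SE 0.54, n = 2 arrays per line, 95% interval -1.67 to 1.24, adjusted p of 1 in limma), with 0.39 between the replicates 1 and -0.81 between the replicates 2. The probe (chr12:104732949-104733008, plus strand, GRCh37) is listed for 4 TXNRD1 transcripts and does not tell them apart.

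SRXN1, sulfiredoxin, which restores over-oxidised peroxiredoxins, ran against NQO1. Its level was 1.58 on HK-2 rep 1, 2.22 on HK-2 rep 2, 2.22 on RPTEC/TERT1 rep 1 and 1.56 on RPTEC/TERT1 rep 2. It was thus 1.57-fold higher on replicate 2 of HK-2 and 1.58-fold higher on replicate 1 of RPTEC/TERT1 than on the other array of the line, the arrays on which NQO1 and GCLC were lower. This order was kept under each processing tried, with replicate 1 minus replicate 2 of HK-2 at -1.54 to -0.64. The -1.54 was after normexp correction, and relative to the median of all genes tested it was -2.53. The difference between the lines was 0.01 (SE 0.52, n = 2 arrays per line, 95% interval -1.41 to 1.43, adjusted p of 1 in limma), with -0.64 between the replicates 1 and 0.67 between the replicates 2. The probe lies at chr20:627563-627622 on the minus strand (GRCh37).

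The widest gaps were those of AKR1C1, an aldo-keto reductase of carbonyls and steroids, which was detected on HK-2 rep 1 and RPTEC/TERT1 rep 2 only. Probe A_23_P257971 had processed signals of 3601 on HK-2 rep 1, 11.7 on HK-2 rep 2, 3.89 on RPTEC/TERT1 rep 1 and 6538 on RPTEC/TERT1 rep 2. Probe A_24_P152968 had 517, 4.25, 5.27 and 1252 in the same order, so both probes were bright on the same arrays and not well above background on the others. Against the floor of -5.37, which lies above the scaled signals of both probes on the dim arrays, the brighter array of HK-2 was at least 379-fold higher than the other by the first probe and at least 54.4-fold by the second. The brighter array of RPTEC/TERT1 was at least 631-fold and at least 121-fold higher. Each array has a dimmest spot that is still well above background, and the floor is the brightest of these 4 after scaling. Probe A_33_P3365117, which lists no RefSeq transcript, was not well above background on any array.

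As a gene, AKR1C1 had levels of 1.79 and -5.37 on HK-2 reps 1 and 2 and of -5.37 and 2.74 on RPTEC/TERT1 reps 1 and 2. This range of 8.11 was wider than that of 99.9% of all genes tested, the median of which was 1.05. The arrays within a line were thus far apart, and the lines differed by -0.47 with an SE of 3.73 (n = 2 arrays per line, 95% interval -10.6 to 9.62, adjusted p of 1 in limma). AKR1C1 was at 7.17 and -8.11 for HK-2 minus RPTEC/TERT1 between the replicates 1 and 2. The nearest genes over the 4 arrays were MAL, CASP4 and its family member AKR1C3, with root mean square distances of 0.21, 0.34 and 0.34 among 12101 genes.

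The AKR1C genes lie side by side on chromosome 10 and are close in sequence, so the probes that carry this pattern are shown, the AKR1C3 probe beside those of AKR1C1. Capitals in the AKR1C1 probe A_24_P152968 mark its first 29 bases.
AKR1C1 A_24_P152968, chr10:5005636-5005695: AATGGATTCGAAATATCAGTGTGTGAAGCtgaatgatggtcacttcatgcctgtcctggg
AKR1C1 A_23_P257971, chr10:5019910-5019969, bases 1 to 40: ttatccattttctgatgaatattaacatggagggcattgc
AKR1C3 A_23_P138541, chr10:5147789-5147848: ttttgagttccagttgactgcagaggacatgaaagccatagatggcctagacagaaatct
All positions are on the plus strand of GRCh37. The file lists A_24_P152968 for transcripts of both AKR1C1 and AKR1C2, and its first 29 bases matched the end of the RefSeq window around the AKR1C2 start with 1 mismatch, while its first 21 bases matched the end of the AKR1C1 window with none. Its signal can therefore not be given to AKR1C1 alone, and no probe on the arrays is named AKR1C2. A_23_P257971 is listed for AKR1C1 only. AKR1C3 had signals of 13158, 195, 80.3 and 17582 on HK-2 reps 1 and 2 and RPTEC/TERT1 reps 1 and 2, so it was detected on all arrays and bright on the same 2 arrays as AKR1C1.

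The probes of AKR1C4, also of this cluster, did not share a pattern. They overlap in a run of 29 bases, in capitals below, and A_33_P3272291 had signals of 985, 10.1, 13.1 and 1398 on HK-2 reps 1 and 2 and RPTEC/TERT1 reps 1 and 2, while A_23_P149926 was not well above background on any array.
AKR1C4 A_33_P3272291, chr10:5246396-5246455: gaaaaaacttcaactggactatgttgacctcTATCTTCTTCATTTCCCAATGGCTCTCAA
AKR1C4 A_23_P149926, chr10:5246427-5247749: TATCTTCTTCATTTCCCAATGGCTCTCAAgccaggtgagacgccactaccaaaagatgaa
Which transcripts gave the signal of the first of these probes was not tested. The level of AKR1C4 is uncertain for that reason.

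AKR1B10, a reductase of retinal and of aliphatic aldehydes, was dim and followed the order of AKR1C1. Probe A_23_P93641 (chr7:134225939-134225998) had signals of 32.9 on HK-2 rep 1, 1.16 on HK-2 rep 2, -0.60 on RPTEC/TERT1 rep 1 and 61.4 on RPTEC/TERT1 rep 2. Probe A_24_P129341 (chr7:134225799-134225858) had 27.8, 31.9, -0.59 and 42.1 in the same order. On replicate 2 of HK-2 the probes disagreed, since the first was not well above background there and the second was. Against the same floor, RPTEC/TERT1 rep 2 was at least 5.93-fold and at least 4.07-fold higher than replicate 1 by these probes. In HK-2, replicate 1 was at least 3.46-fold higher than replicate 2 by the first probe and 1.66-fold higher by the second. The 1.66-fold came with the array percentile, since the unscaled signals of the second probe, 27.8 and 31.9, ran the other way. The gene's levels were -3.70, -4.96, -5.37 and -3.08, and the lines differed by -0.11 (SE 0.99, n = 2 arrays per line, 95% interval -2.79 to 2.57, adjusted p of 1 in limma). Between the replicates 1 HK-2 lay 1.67 above RPTEC/TERT1, and between the replicates 2 it lay 1.89 below. The gene's gap within HK-2 went from 1.26 to 3.03 after normexp correction, or to 2.04 relative to the median of all genes tested. The gap within RPTEC/TERT1 went from 2.30 to 1.05.

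**Figure D3:**
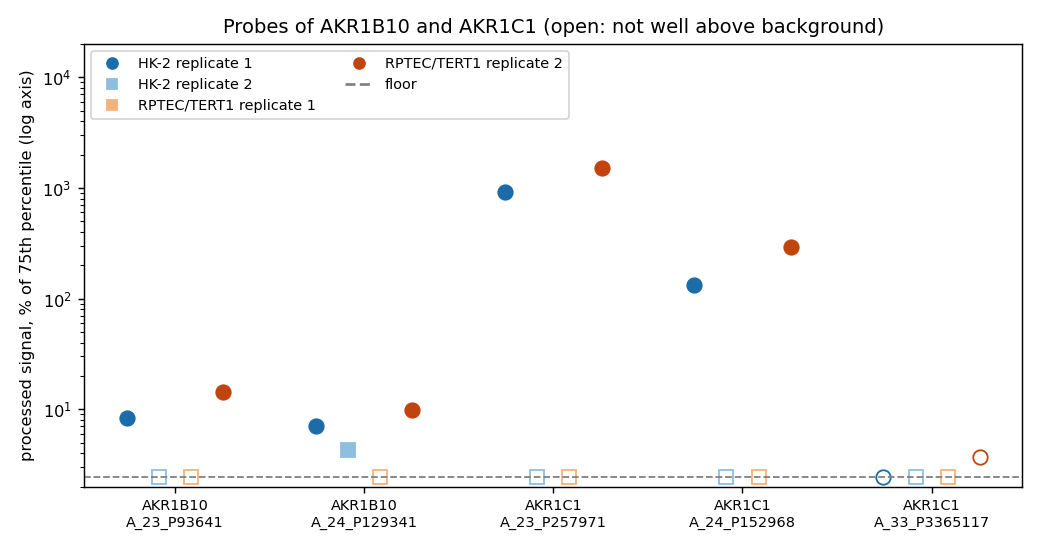
Processed signal of the probes of AKR1B10 and AKR1C1 on each array, as a percent of the 75th percentile of that array on a log axis, with the same colours and symbols as in the plot of levels and open symbols for probes not well above background. Both AKR1C1 probes that were detected lie above the percentile on HK-2 rep 1 and RPTEC/TERT1 rep 2 and at the floor, drawn as a dashed line, on the other arrays.

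The start regions of the genes were searched for the core of the antioxidant response element, TGACNNNGC, on both strands, in RefSeq promoter windows of 300 bases (250 before the start and 50 after it, GRCh38.p14). Of the 9 genes, 7 had a window, and matches were found for GCLM and TXNRD1, in 3 of 9 windows of the 7 genes, against 13.3% of all 35116 windows. The matches are shown with 16 bases on each side, on the strand of the gene and with the match in capitals, since these are the start regions in which the element of the pathway could be read.
GCLM, chr1:93909440-93909480, minus strand: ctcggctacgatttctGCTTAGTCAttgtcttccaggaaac
TXNRD1, chr12:104215664-104215704, plus strand: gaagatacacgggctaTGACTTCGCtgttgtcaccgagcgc
TXNRD1, chr12:104215755-104215795, plus strand: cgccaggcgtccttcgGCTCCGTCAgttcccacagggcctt
TXNRD1, chr12:104286914-104286954, plus strand: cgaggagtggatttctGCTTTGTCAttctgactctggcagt
The GCLM match began 34 bases before the start site. The last TXNRD1 line comes from another start of that gene. Levels spanned 0.68 and 0.95 over the arrays for GCLM and TXNRD1, which had a match, and from 0.67 for SRXN1 to 8.11 for AKR1C1 among the 5 genes whose windows held none. The search read these windows only, and elements farther from a start were not searched.

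Genes around NRF2 were then read in lists of the pathway, in none of which limma called a gene. The lists were read on levels alone and not under other processing. The array percentile that divides a signal was 393 on HK-2 rep 1 and 748 on HK-2 rep 2. A small gap in level within HK-2 can therefore run against the unscaled signals, as for HMOX1 and GCLC. Among 12 genes of NRF2 control, KEAP1 itself was even, with levels of 0.85 and 0.86 on HK-2 reps 1 and 2 and of 0.88 and 0.70 on RPTEC/TERT1 reps 1 and 2. SQSTM1, the autophagy receptor p62 that binds KEAP1 and is itself an NRF2 target, had levels of 4.99 and 2.17 in HK-2 and of 2.27 and 4.98 in RPTEC/TERT1, so it was 7.06-fold and 6.56-fold apart between arrays of a line. BTRC, a subunit of a second ligase for NRF2, had levels of -1.45 and -0.63 in HK-2 and -0.84 and -1.68 in RPTEC/TERT1. MAFF, a small MAF partner, had 0.38 and -0.44 in HK-2 and 0.21 and 0.61 in RPTEC/TERT1. Of the 11 genes with a test, 2 were highest on HK-2 rep 1 and RPTEC/TERT1 rep 2, beside 38.9% of all genes. Another 5 were highest on HK-2 rep 2 and RPTEC/TERT1 rep 1, beside 33.2% of all genes. The only spot of NFE2L1 was marked as an outlier on every array.

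The list of NADPH supply, the source of reducing power for NQO1 and the reductases, lay one way in its levels. All 7 of its genes were highest on HK-2 rep 1 and RPTEC/TERT1 rep 2, beside 38.9% of all genes, with a median range of 0.84. Within HK-2 the unscaled signal of some of them, TKT included, was higher on rep 2, so the order there rested on the scaling. TALDO1, transaldolase of the pentose phosphate pathway, had levels of 6.18 and 4.67 on HK-2 reps 1 and 2 and of 4.56 and 6.06 on RPTEC/TERT1 reps 1 and 2. TKT, transketolase, had 4.95 and 4.43 in HK-2 and 4.25 and 5.48 in RPTEC/TERT1. The groups of arrays were thus apart by 1.44-fold to 2.85-fold within a line for these 2 genes.

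Heme and iron genes showed the same order of levels for all 7 of the list, beside 38.9% of all genes, with a median range of 1.24. Within HK-2 not all of them kept this order in the unscaled signal. BLVRB, a biliverdin reductase that acts after heme oxygenase, had levels of 3.12 and 1.24 on HK-2 reps 1 and 2 and of 0.81 and 3.25 on RPTEC/TERT1 reps 1 and 2. BLVRA, the main biliverdin reductase of the adult, had 4.27 and 3.29 in HK-2 and 2.89 and 4.57 in RPTEC/TERT1. The iron exporter SLC40A1 (ferroportin) had -0.50 and -1.90 in HK-2 and -2.30 and -0.45 in RPTEC/TERT1.

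Glutathione genes were divided, with 4 of the 9 tested highest on HK-2 rep 1 and RPTEC/TERT1 rep 2 and 4 on the other arrays. Over all genes tested these orders were held by 38.9% and 33.2%. The efflux pump ABCC3 had levels of 2.80 and -0.96 on HK-2 reps 1 and 2 and of -1.20 and 2.77 on RPTEC/TERT1 reps 1 and 2, a gap of 13.5-fold and 15.7-fold within the lines. The glutathione transferase GSTP1 had 6.92 and 5.95 in HK-2 and 5.47 and 7.21 in RPTEC/TERT1. Another transferase, GSTM3, ran the other way, with 0.04 and 3.03 in HK-2 and 2.62 and -0.61 in RPTEC/TERT1. Members of this list therefore stood high on different arrays.

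Of 8 thioredoxin genes, 2 were highest on HK-2 rep 1 and RPTEC/TERT1 rep 2 and 5 on the other arrays, beside 38.9% and 33.2% of all genes. SESN2, a sestrin of the stress response, had levels of -1.68 and 0.46 on HK-2 reps 1 and 2 and of 0.93 and -1.53 on RPTEC/TERT1 reps 1 and 2, as SRXN1 did in order. The thioredoxin inhibitor TXNIP had 2.21 and 3.78 in HK-2 and 3.32 and 2.78 in RPTEC/TERT1. PRDX1, a peroxiredoxin and substrate of sulfiredoxin, had 6.73 and 6.06 in HK-2 and 5.96 and 6.90 in RPTEC/TERT1, in levels the order opposite to that of SRXN1. Within HK-2 the unscaled signals of both genes were higher on rep 2, so the opposite order there rested on the scaling.

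Among carbonyl and quinone genes, 8 of 12 tested were highest on HK-2 rep 1 and RPTEC/TERT1 rep 2, beside 38.9% of all genes. The median range of the list was 1.49, and the 8 genes include AKR1C4, whose level is uncertain. AKR1C3 led, with levels of 5.06 and -1.94 in HK-2 and of -2.60 and 5.36 in RPTEC/TERT1, 128-fold and 249-fold apart within the lines. UGT1A6, a glucuronosyltransferase of phenols, had -0.81 and -4.66 in HK-2 and -5.00 and -1.03 in RPTEC/TERT1. The aldehyde dehydrogenase ALDH3A1 was alike on the arrays labelled HK-2, at -2.29 and -2.13, and 21.2-fold apart in RPTEC/TERT1, at -4.77 and -0.37. Of the 4 further signature genes, TRIM16L had 3.85 and -0.16 in HK-2 and 0.50 and 3.50 in RPTEC/TERT1, the pirin gene PIR -0.64 and 0.83 in HK-2 and 0.63 and 0.11 in RPTEC/TERT1, and OSGIN1 -2.58 and -3.24 in HK-2 and -3.88 and -2.59 in RPTEC/TERT1. Median differences of HK-2 minus RPTEC/TERT1 lay between -0.10 and 0.05 over the 7 lists, beside 0.02 over all genes.

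**Figure D4:**
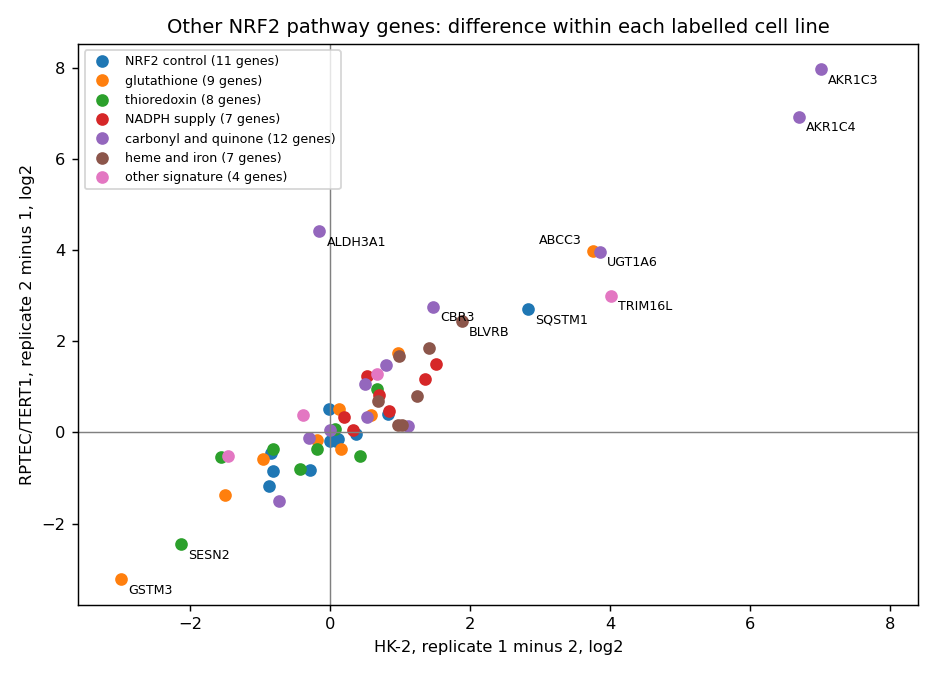
Difference within each labelled line for the tested genes of the 7 pathway lists, on the log2 scale, as replicate 1 minus replicate 2 in HK-2 (x) and replicate 2 minus replicate 1 in RPTEC/TERT1 (y), with 1 point per gene, coloured by list and named where a difference exceeds 2. NADPH supply and heme and iron genes lie in the upper right, AKR1C3 and AKR1C4 at its far end, and GSTM3 and SESN2 in the lower left.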

How the data were processed

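Expression was measured on 1-colour Agilent arrays. The authors deposited spot intensities of Feature Extraction 9.5.3.1, whose processed signal is background-subtracted and unscaled, and log2 values of the same spots, made by steps not given in the sources used here (array medians of 8.33, 7.14, 6.75 and 6.72 for HK-2 replicates 1 and 2 and RPTEC/TERT1 replicates 1 and 2). These medians differ, so the deposited log2 values were not centred to a common median, and whether they were scaled is unknown. Without control spots, signals were scaled to the array's 75th percentile, floored at 0.0242 of it and taken to log2. Outlier spots counted towards that percentile and were left out after it. The remaining spots of a probe were averaged, then the probes of a gene that any array read well above background. The lines were compared with limma 3.58.1 (R 4.3.3, lmFit and eBayes, Benjamini-Hochberg). This step was tested on simulated data with independent noise on every array. The arrays here did not vary in that way, so the simulation does not show the power of the fit on them. Only 4 arrays limit the precision. The methods call them biological duplicates, with RNA from the innuPREP kit, whereas the labels name RNeasy. Arrays with the same replicate number deviated from the means of their lines with a correlation of -0.810 across genes, so the numbers did not pair them. The named genes are the 9 genes, KEAP1, from each list the 3 genes of widest range that were well above background on all arrays, and the 3 genes nearest to HMOX1, NQO1, AKR1C1 and NFE2L2. AKR1C4 and the marker genes were named after their values were seen. Members and lists were chosen with earlier results of these data known. Genes carry the names of the array design, and RefSeq transcripts and promoters (GRCh38.p14) were used for names and start regions. Exons and UTRs of the probes were not analysed here. A further gene named by the rule and the sequence of a probe are not reported here.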

Additional observations from a re-analysis of the deposited data

Results flagged for a closer look

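For 8 of the 9 genes the arrays of the labelled lines moved in opposite directions from replicate 1 to replicate 2, with 1 array per line and number, and the difference was not tested. Most genes did so too, since the orders that cross the labels, held by 38.9% and 33.2% of all genes tested, always give such moves. The count is thus no trait of the 9 genes. The change in RPTEC/TERT1 minus that in HK-2, on the log2 scale, was 3.18 for NQO1, 2.28 for HMOX1, 2.24 for GCLC and 1.20 for TXNRD1. It was 3.56 for AKR1B10 and 15.3 for AKR1C1, both with arrays at the floor. It was -1.31 for SRXN1 and -1.57 for NFE2L2, which ran the other way. After normexp correction the value for NFE2L2 was 1.22. HMOX1 and NFE2L2 then no longer moved in opposite directions, which leaves 6 genes. In the deposited log2 values NFE2L2 was at 0.23 and 7 genes were left. Under these settings the median of all genes tested lay 0.99 and 0.51 higher on HK-2 replicate 1 than on replicate 2. GCLM was higher on replicate 2 in both lines. The replicate number is also the scan date, and same-numbered arrays deviated in opposite directions across genes (correlation of -0.810). Culture and label cannot be told apart.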

How the results depend on the processing

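None of the 9 genes and none of all genes passed the adjusted threshold in limma under any of 13 alternatives, with 4 to 240 genes at an unadjusted p below 0.05. With the replicate number as a block 0 genes were called and 5 were under an unadjusted 0.05, and with the crossed pairing, chosen after seeing the data, 0 were called and 183 were under it. Of the 9 genes NFE2L2 was under it with the crossed pairing (p of 0.014 in limma, adjusted p of 1) and in the deposited log2 values. Differences of HK-2 minus RPTEC/TERT1 near 0 changed sign with the processing, and the cause was not tested. After normexp correction they were 0.12 for NQO1, -0.29 for GCLC, -0.33 for SRXN1 and 0.86 for AKR1B10. In the deposited log2 values they were 0.49 for NQO1, 0.12 for HMOX1, 0.18 for GCLM, 0.29 for TXNRD1 and 0.97 for AKR1B10. The array medians of those values ran from 6.72 on RPTEC/TERT1 replicate 2 to 8.33 on HK-2 replicate 1. With the brightest probe the difference was 0.17 for AKR1B10. Within HK-2, replicate 1 minus replicate 2 was -0.25 for HMOX1 and 1.41 for NFE2L2 after normexp, and 0.54 for NFE2L2 in the deposited values. Gaps within a line also moved without a change of sign. They went to 0.55 for TXNRD1 in HK-2 (deposited values), -0.19 for NFE2L2 in RPTEC/TERT1 (normexp) and 4.58 for AKR1C1 in HK-2 (normexp). The values within HK-2 include a shift of the median of all genes tested. This median lay 0.99 (normexp) and 0.51 (deposited values) higher on replicate 1. Leaving out each array in turn gave -0.90 to 0.69 for NQO1, -1.03 to 0.53 for HMOX1, -0.61 to 0.73 for GCLC, -0.46 to 0.027 for GCLM, -0.69 to 0.26 for TXNRD1, -0.32 to 0.34 for SRXN1, -1.26 to 1.04 for AKR1B10, -4.53 to 3.58 for AKR1C1 and 0.61 to 1.50 for NFE2L2, where the lone array of a line is assumed to vary like the others. The sign changed without HK-2 replicate 1 or RPTEC/TERT1 replicate 1 for GCLC, without HK-2 replicate 1 or RPTEC/TERT1 replicate 2 for GCLM, without HK-2 replicate 2 for TXNRD1, and without HK-2 replicate 2 or RPTEC/TERT1 replicate 2 for NQO1, HMOX1, SRXN1, AKR1B10 and AKR1C1. Of the 9 genes NFE2L2 alone kept the sign of HK-2 minus RPTEC/TERT1 in all alternatives. The count of 7 genes whose highest arrays cross the labels was 6 after normexp and 5 with a filter that asks for all arrays well above background, which leaves out AKR1B10 and AKR1C1. On the processed signal the orders that cross the labels were held by 38.9% and 33.2% of all genes tested. Shares of all genes under the alternatives were not counted. Levels near the floor of AKR1B10 and AKR1C1 are bounds.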
